A study of Mus musculus with 13 samples.

Results

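The nuclear-encoded genes of the mitochondrial respiratory chain and ATP synthase were followed in 13 poly(A) RNA libraries of Neuro2a cells, a line of neuron-like cells from a mouse neuroblastoma. The genes were taken as the protein-coding genes whose GRCm38 symbol starts with Ndufa, Ndufb, Ndufc, Ndufs, Ndufv, Uqcr, Cox5, Cox6, Cox7, Cox8 or Atp5, with Sdha, Sdhb, Sdhc and Sdhd. Ndufa4l2 and names ending in -ps were left out. The rule goes by gene name and type alone, but it was set with earlier results of these data known. This gave 89 of 34856 genes: 36 of complex I, 4 of complex II, 8 of complex III, 15 of complex IV, 16 of complex V, 8 complex I assembly factors named Ndufaf and 2 associated proteins, Atp5s and Cox7a2l. Ndufa4 was counted with complex IV, where its protein is now placed. The 14 other genes with these name beginnings were Ndufa4l2 and 13 genes not annotated as protein-coding, mostly pseudogenes.

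The study asked how cells that survive a failed cryostorage differ from cells kept frozen. Experimental vials held cells in 10% DMSO, a cryoprotectant, and stood in a dewar at 4 °C for 34 h, 10 h while the liquid nitrogen evaporated and 24 h at 4 °C. They were then frozen at -80 °C for 72 h, thawed at 37 °C and plated in medium with 10% fetal bovine serum. Control vials held the same cells in the same freezing medium, remained in normal storage without that warming and refreezing, and were thawed and plated in the same way. RNA came from 4 experimental and 3 control samples at passage 1, when survivors had begun to proliferate rapidly, and from 3 experimental and 3 control samples at passage 6, when they looked normal. All samples are 1 cell line, and the labels do not say whether replicates are separate vials or cultures. Each p-value is thus read against the spread between samples of a group, which may be technical only. These are bulk samples, so fewer cells of a type and less RNA per cell cannot be told apart.

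In the inner mitochondrial membrane, complex I (NADH dehydrogenase) and complex II (succinate dehydrogenase) pass electrons to ubiquinone, complex III (the cytochrome bc1 complex) passes them to cytochrome c, and complex IV (cytochrome c oxidase) passes them to oxygen. Complexes I, III and IV pump protons as they do so, and complex V (ATP synthase) uses the returning protons to make ATP. Most subunits are encoded in the nucleus and imported, while a small set is encoded by mitochondrial DNA, so a working complex needs products of both genomes and dedicated assembly factors.

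The deposited values are FPKM, fragment counts divided by transcript length and by library size, so the read depth is unknown and the spread between libraries is the measure of error. FPKM summed to between 315034 and 354288 per library. Mitochondrially encoded and other mitochondrial-chromosome transcripts made up 12.3 to 14.7% of this in experimental and 14.5 to 14.8% in control libraries at passage 1, and 25.0 to 26.8% in experimental and 27.1 to 27.4% in control libraries at passage 6. Some libraries stood apart by transcripts of other tissues. Passage 6 experimental libraries 2 and 3 had all 15 listed liver markers at 1 FPKM or more, with sums of 249 and 202 FPKM, while no other library had more than 1 of them at that level or a sum above 2.43 FPKM. Colon epithelium markers, 21 in all, summed to 8.72 FPKM in passage 1 experimental library 3 and to 10.0 and 10.4 FPKM in those 2 passage 6 libraries, against 90.3 to 511 FPKM in the other 10 libraries. Of 14 cartilage markers only 1 reached 1 FPKM in passage 1 experimental library 4 and in passage 1 control library 1, against 6 to 9 in the other passage 1 libraries. The markers of the line itself, 14 neuroblastoma and neuronal genes, summed to 867 to 904 FPKM in experimental and 937 to 973 FPKM in control libraries at passage 1. At passage 6 they summed to 1178 to 1279 FPKM in experimental and 1082 to 1132 FPKM in control libraries, so the sums were separate in opposite directions. The single genes were mixed. Of the 12 that entered the test described below, 5 had a fitted change below 0 at passage 1 (median log2 change 0.11). At passage 6 it was 4 of the 12 (median 0.042). At passage 1, 3 were called higher and 3 lower (25% each), where 11.5% and 18.9% of all genes were. At passage 1, 15 striated muscle markers, 12 of them under 1 FPKM in every library, summed to 11.99 to 12.55 FPKM in experimental and 5.96 to 6.82 FPKM in control libraries. Myelin and brain markers, 11 in all, summed to 26.5 to 29.7 FPKM in experimental and 34.4 to 35.9 FPKM in control libraries at passage 1, again without overlap. Of the 4 myelin and brain markers that entered the test at passage 1, 1 was called higher and 2 lower (25% and 50%). The part of these markers in the results was not tested.

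Below, a gene is called higher or lower where limma's test on log2(FPKM + 1) gave a Benjamini-Hochberg adjusted p under 0.05 over all genes tested in that passage. A gene was tested where at least 3 libraries of the passage reached 1 FPKM, which 87 of the 89 genes did at both passages. The exceptions were Cox6b2 and Cox8b, the testis and the heart and muscle forms of complex IV subunits, which stayed at or below 0.346 FPKM in every library. All log2 changes are experimental minus control on the log2(FPKM + 1) scale, which understates the change of genes with low FPKM.

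The genes were expressed over a wide range. In passage 1 controls the highest level was that of Atp5b, the catalytic beta subunit of ATP synthase, with 536, 544, 485 and 506 FPKM in the experimental libraries and 517, 527 and 520 FPKM in the controls. Atp5a1, its alpha partner in the catalytic head, came next. Among complex IV genes the forms found in most tissues dominated: Cox6a1 had 161 to 169 FPKM in experimental and 176 to 188 FPKM in control libraries at passage 1. Its heart and muscle form Cox6a2 had 1.14 to 2.78 FPKM in experimental and 1.59 to 2.29 FPKM in control libraries, and Cox7a1, the heart and muscle form of Cox7a2, had 0.831 to 3.73 FPKM in experimental and 0.875 to 1.44 FPKM in control libraries. An exception was Cox7b2, a paralog of Cox7b described mainly in testis, which had 20.2 to 26.0 FPKM in experimental and 22.9 to 24.6 FPKM in control libraries, against 40.8 to 46.1 FPKM in experimental and 43.5 to 46.7 FPKM in control libraries for Cox7b. The 3 genes for the identical mature c subunit of ATP synthase differed in level in passage 1 controls. Atp5g3 had 115 to 121 FPKM and Atp5g2 108 to 120 FPKM, ranges that overlapped, while Atp5g1 had 19.0 to 19.4 FPKM. All 89 genes together took 1.41 to 1.55% of the FPKM in experimental and 1.51 to 1.53% in control libraries at passage 1, and 0.877 to 0.988% in experimental and 0.930 to 0.975% in control libraries at passage 6.

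**Figure D1:**
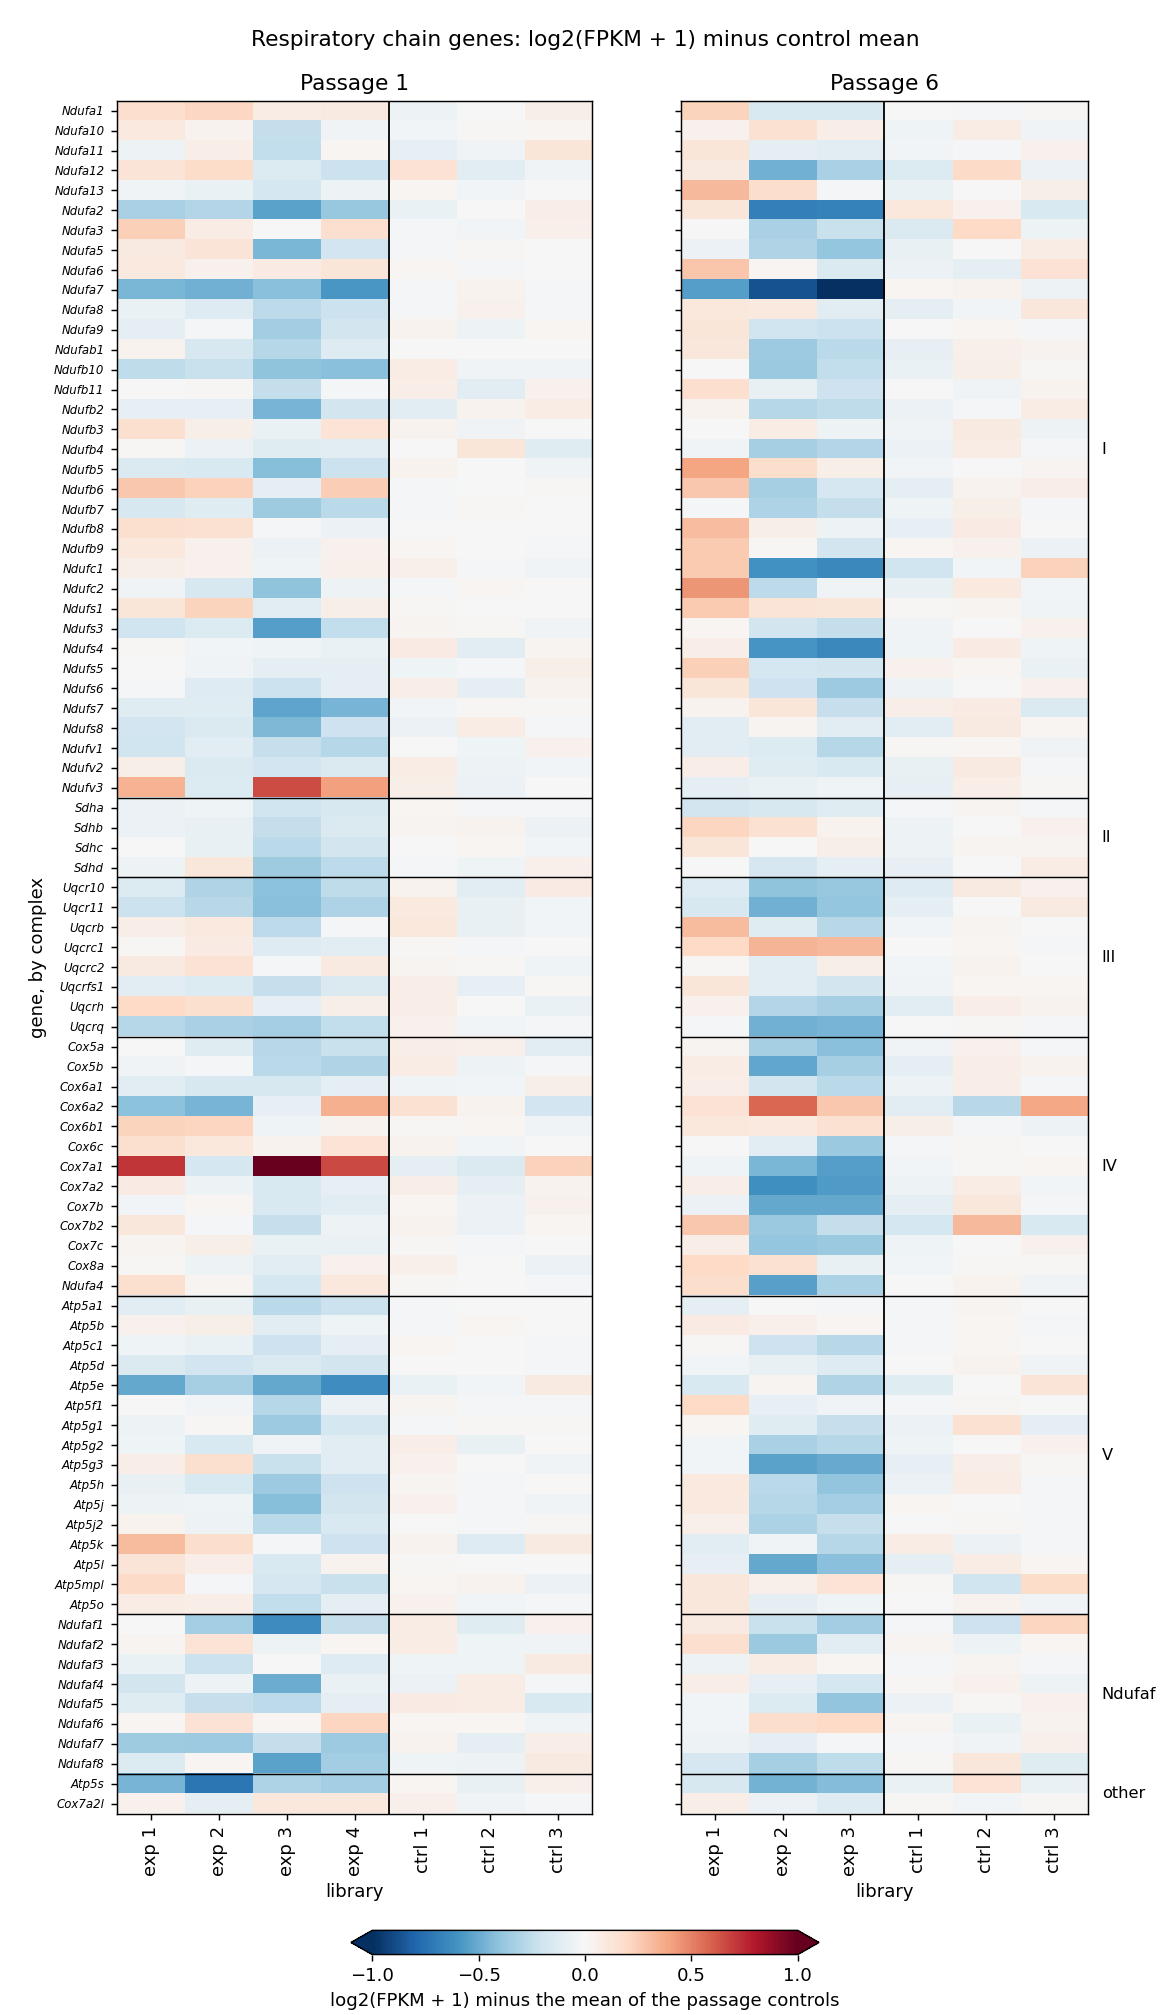
Each row is 1 of 86 of the 87 tested genes, grouped by complex, and each column 1 library, with experimental libraries left of controls in both panels. Colour is log2(FPKM + 1) minus the mean of the controls of that passage, and values beyond 1 in either direction take the end colours. At passage 1 experimental library 3 is the bluest column, and at passage 6 libraries 2 and 3 are blue across most complexes while experimental library 1 is not.

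The promoters of the 4 genes called at passage 6 are shown because these include both genes called lower at both passages and the single gene called higher. Each sequence runs 5′ to 3′ on the gene's strand from 250 bases before to 50 bases after the start of transcription, from RefSeq on GRCm38.p6. Capitals mark matches, on either strand, to TGCGCA, a half-site of the palindromic NRF1 site, or to CCGGAAG, a core of the ETS sites bound by GABP (NRF-2). NRF1 and GABP are known activators of respiratory chain genes. Ndufa7, at chr17:33824322-33824621 on the plus strand, had no match to either motif. A second listed promoter of Ndufa7, at chr17:33824395-33824694, overlaps this region and had no match either. Its start lies past the end of the printed sequence. Uqcr11, at chr10:80406772-80407071 on the minus strand, had 1 ETS match. Sdha, at chr13:74350191-74350490 on the minus strand, had 2 NRF1 half-site matches, and Uqcrc1, at chr9:108936398-108936697 on the plus strand, had 2, which join into 1 run of capitals. No match of one motif overlapped a match of the other, and both motifs were chosen after the data were seen.
Ndufa7: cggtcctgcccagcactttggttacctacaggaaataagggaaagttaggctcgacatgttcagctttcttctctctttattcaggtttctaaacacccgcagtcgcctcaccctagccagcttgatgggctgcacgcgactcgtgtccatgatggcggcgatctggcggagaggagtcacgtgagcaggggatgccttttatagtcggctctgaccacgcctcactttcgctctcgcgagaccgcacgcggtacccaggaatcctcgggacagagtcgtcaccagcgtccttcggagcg
Uqcr11: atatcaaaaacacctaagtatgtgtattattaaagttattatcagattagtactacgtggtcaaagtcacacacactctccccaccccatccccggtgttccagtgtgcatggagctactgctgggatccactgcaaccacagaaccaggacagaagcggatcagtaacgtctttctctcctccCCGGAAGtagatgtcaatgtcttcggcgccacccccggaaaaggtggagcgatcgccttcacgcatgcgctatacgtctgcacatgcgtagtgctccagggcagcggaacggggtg
Sdha: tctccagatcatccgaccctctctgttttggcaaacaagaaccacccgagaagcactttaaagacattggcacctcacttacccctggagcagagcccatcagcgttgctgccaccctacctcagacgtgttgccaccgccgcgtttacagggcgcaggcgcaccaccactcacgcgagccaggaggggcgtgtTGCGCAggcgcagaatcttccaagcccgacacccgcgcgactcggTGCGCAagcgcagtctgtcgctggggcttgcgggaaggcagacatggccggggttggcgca
Uqcrc1: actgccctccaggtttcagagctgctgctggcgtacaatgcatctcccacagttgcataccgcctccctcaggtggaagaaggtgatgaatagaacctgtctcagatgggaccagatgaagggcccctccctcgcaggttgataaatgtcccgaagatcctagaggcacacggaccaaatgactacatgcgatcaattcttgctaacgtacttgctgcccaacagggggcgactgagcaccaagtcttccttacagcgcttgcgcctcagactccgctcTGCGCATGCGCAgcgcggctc

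A promoter was listed for 74 of the 89 genes. The NRF1 half-site was found in 18 of these (24.3%), against 11.0% of 17492 protein-coding genes with a listed promoter, and the ETS motif in 18 (24.3%), against 12.9%. Of the genes lower at passage 1, 2 of the 12 with a listed promoter held the NRF1 half-site and 4 the ETS motif, while 16 and 14 of the 60 other tested genes did. A match is a description of letters in this window and not evidence of binding.

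At passage 1 the survivors had lower mRNA of a minority of respiratory chain genes, and no gene of the set was higher. Of 87 tested genes 16 were called lower and 0 higher in experimental libraries, where 18.9% of all 12469 tested genes were lower and 11.5% higher, so the share of lower genes (18.4%) was near that of all genes. The lower genes belonged to complex I (8 of 36), complex III (3 of 8) and complex V (3 of 16), with the assembly factor Ndufaf7 and Atp5s. None of the 4 complex II genes and none of the 13 tested complex IV genes was called. Changes were small: the median over the 87 genes was -0.10, against -0.053 over all tested genes, and 86 of the 87 (98.9%) changed by less than 0.5 in either direction, against 92.3% of all genes.

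In complex I the clearest change was that of Ndufa7, an accessory subunit of the matrix arm. Ndufa7 had 31.4, 30.9, 32.3 and 28.8 FPKM in experimental libraries, against 42.9, 44.6 and 43.3 FPKM in controls. The groups were far apart, at 30.9 ± 1.5 FPKM in experimental (SD, n = 4) and 43.6 ± 0.897 FPKM in control libraries (SD, n = 3), a log2 change of -0.49 (SE 0.050, limma adjusted p = 0.000548). Ndufa2, another accessory subunit of the matrix arm, had 32.9, 33.6, 28.3 and 31.5 FPKM in experimental libraries and 39.5, 41.3 and 43.5 FPKM in controls. These groups did not overlap either, and the log2 change was -0.38 (SE 0.066, limma adjusted p = 0.00477). Ndufb10, an accessory subunit of the membrane arm, was at 51.1 ± 3.57 FPKM in experimental and 64.2 ± 2.82 FPKM in control libraries (log2 change -0.32, SE 0.063, limma adjusted p = 0.00716).

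The other 5 lower complex I genes changed less, by log2 changes of -0.17 for Ndufa8, -0.23 for Ndufb7, -0.23 for Ndufb5, -0.25 for Ndufs8 and -0.21 for Ndufv1. Ndufv1 binds the FMN that takes electrons from NADH, and Ndufs8 carries iron-sulfur clusters on the path to ubiquinone. Ndufv1 had 31.7, 33.6, 30.8 and 29.7 FPKM in experimental libraries, against 36.5, 35.3 and 37.5 FPKM in controls, with no overlap (limma adjusted p = 0.0204). Of the 7 nuclear-encoded core subunits, which carry the electron path, 2 were called lower, and of the 29 accessory subunits 6. The core subunits Ndufs3 and Ndufs7 also lay below every control in all 4 experimental libraries but did not pass the test (limma adjusted p = 0.0513 and 0.0645). Ndufs1, the largest of the iron-sulfur subunits, overlapped with controls, with a log2 change of 0.072.

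In complex II, all 4 genes had fitted changes below 0, between -0.14 for Sdhd and -0.12 for Sdha, and none passed the test. Sdha, the flavoprotein that oxidizes succinate, had 73.0, 73.8, 66.2 and 67.8 FPKM in experimental and 77.3, 75.4 and 75.6 FPKM in control libraries. These ranges did not overlap, but they nearly touched (limma adjusted p = 0.116).

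In complex III the 3 lower genes, Uqcrq, Uqcr11 and Uqcr10, all encode small supernumerary subunits. Uqcrq had 66.6, 64.7, 64.0 and 68.4 FPKM in experimental libraries, against 83.6, 79.9 and 80.3 FPKM in controls. Every experimental library was well below every control, at 65.9 ± 1.99 FPKM (SD, n = 4) against 81.3 ± 2.02 FPKM (SD, n = 3), a log2 change of -0.30 (SE 0.042, limma adjusted p = 0.0021). Uqcr11 had 30.6, 29.2, 26.4 and 28.6 FPKM in experimental libraries and 38.3, 33.9 and 34.9 FPKM in controls, again without overlap (log2 change -0.31, SE 0.064, limma adjusted p = 0.00966). Of the 5 small subunits 3 were called, and of the core and Rieske subunits Uqcrc1, Uqcrc2 and Uqcrfs1 none was, a split made after the values were seen. The Rieske iron-sulfur protein Uqcrfs1 missed the threshold (log2 change -0.15, limma adjusted p = 0.0526).

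Among the 13 tested complex IV genes reached by the name rule none was called. Cox5a and Cox5b, which surround the catalytic core, had log2 changes of -0.15 and -0.16 with overlapping groups (limma adjusted p = 0.166 and 0.179). The gene with the highest FPKM among these 13, Cox6a1, lay below every control in all 4 experimental libraries and just missed the threshold (log2 change -0.13, limma adjusted p = 0.054). Cox7a1 had the widest spread, with 2.40, 0.831, 3.73 and 2.27 FPKM in experimental libraries and 0.947, 0.875 and 1.44 FPKM in controls (log2 change 0.60, SE 0.28, limma adjusted p = 0.143).

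In complex V the 3 lower genes, Atp5e, Atp5d and Atp5a1, belong to the F1 part that makes ATP: Atp5e and Atp5d encode the epsilon and delta subunits of its rotating stalk. Atp5e had 7.18, 8.26, 7.17 and 6.57 FPKM in experimental libraries, against 10.1, 10.4 and 11.4 FPKM in controls. The groups were separate and the change was the largest of the 16 called (log2 change -0.49, SE 0.076, limma adjusted p = 0.00285). Atp5d had 118, 114, 118 and 115 FPKM in experimental and 131, 131 and 129 FPKM in control libraries, a small change with little spread (log2 change -0.17, SE 0.037, limma adjusted p = 0.0119). Of the 5 F1 genes 3 were called and of the 11 genes of the membrane part and outer stalk none was, a split also made after the values were seen. Atp5b, whose protein forms the catalytic sites with that of Atp5a1, had a log2 change of -0.012 (limma adjusted p = 0.879). The gene body of Atp5d is overlapped on the other strand by Cbarp, which reached at most 9.61 FPKM in any library, and whether counting used strand is not given in the sources used here.

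Outside the subunits, Ndufaf7, a methyltransferase needed for complex I assembly, had 2.88, 2.86, 3.19 and 2.85 FPKM in experimental libraries and 4.08, 3.62 and 4.18 FPKM in controls (log2 change -0.33, SE 0.065, limma adjusted p = 0.00786). Atp5s, also known as factor B, had 1.69, 1.24, 1.99 and 1.94 FPKM in experimental libraries and 2.77, 2.52 and 2.85 FPKM in controls, separate groups at a low level (log2 change -0.46, limma adjusted p = 0.0149).

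**Figure D2:**
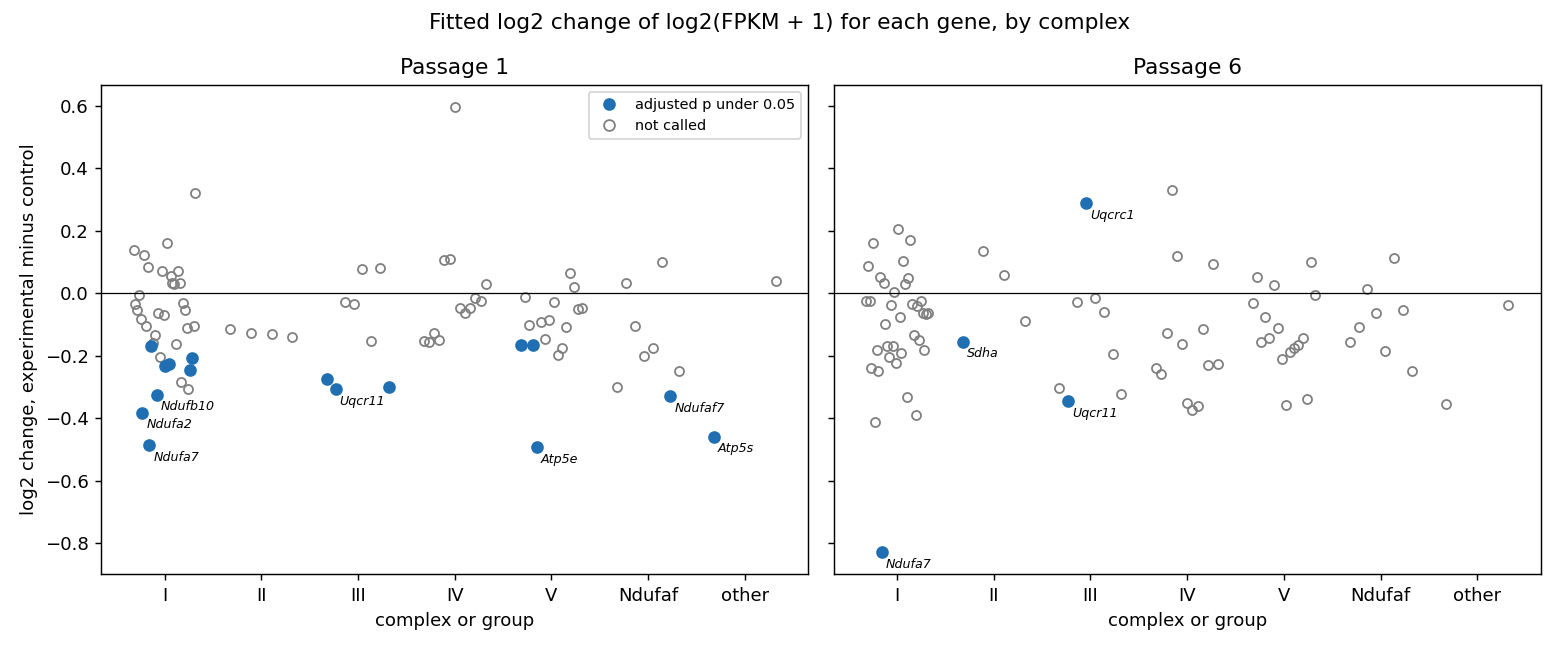
Each point is 1 tested gene, placed by complex on the x axis and by its fitted log2 change, experimental minus control, on the y axis. Filled points passed an adjusted p of 0.05 by limma; at passage 1 all 16 lie below 0, and at passage 6 Ndufa7, Uqcr11 and Sdha lie below and Uqcrc1 above.

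The passage 1 libraries were not alike. The median over the 87 genes, relative to the control mean, was 0.0032, -0.048, -0.23 and -0.11 in experimental libraries 1 to 4, against 0.021, -0.016 and -0.0028 in control libraries 1 to 3. Library 3 was thus the lowest and library 1 level with the controls. Library 3 was the lowest of the 4 experimental libraries for 65 of the 87 genes (74.7%), against 35.3% of all tested genes, and it is also the library with 12.3% mitochondrial transcripts and 8.72 FPKM of colon markers. The part of these library differences in the calls was not tested. Without library 3 the fit called 16 genes of the set lower (18.4%) and 3 higher (3.45%), where 19.3% and 12.1% of all genes were, and the median over the set was -0.057, against -0.048 over all genes. All 4 experimental libraries lay below every control for 27 genes (31%), against 26.9% of all genes, and above every control for 3 (3.45%), against 15.8%.

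These counts moved with the scaling of the FPKM. With median-of-ratios scaling 8 genes were lower and 4 higher, where 12.7% and 15.9% of all genes were, and with equal FPKM totals 10 and 2, where 14.5% and 13.8% were. The median over the set was -0.033 with median-of-ratios scaling, against 0.0059 over all genes. In the 5 libraries with cartilage transcripts, an alternative chosen after seeing the data, 4 were lower and 0 higher, where 4.46% and 3.56% of all genes were called. Ndufa7, Uqcrq and Atp5e were lower in all 20 alternatives run at passage 1, and Ndufa2, Ndufb10 and Uqcr11 in all but 1. Ndufaf7 was lower in 18 of the 19 in which it was tested, while Ndufa8, Atp5a1, Ndufs8 and Ndufb5 lost their call in 12 to 15. Atp5d lost its call in 6 of the 20, Ndufv1 and Uqcr10 in 7 and Ndufb7 in 9, and Atp5s in 4 of 19. Leaving out any 1 of the 3 controls ended the calls of Atp5d, Ndufv1, Ndufb7, Ndufa8, Atp5a1, Ndufs8 and Ndufb5.

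**Figure D3:**
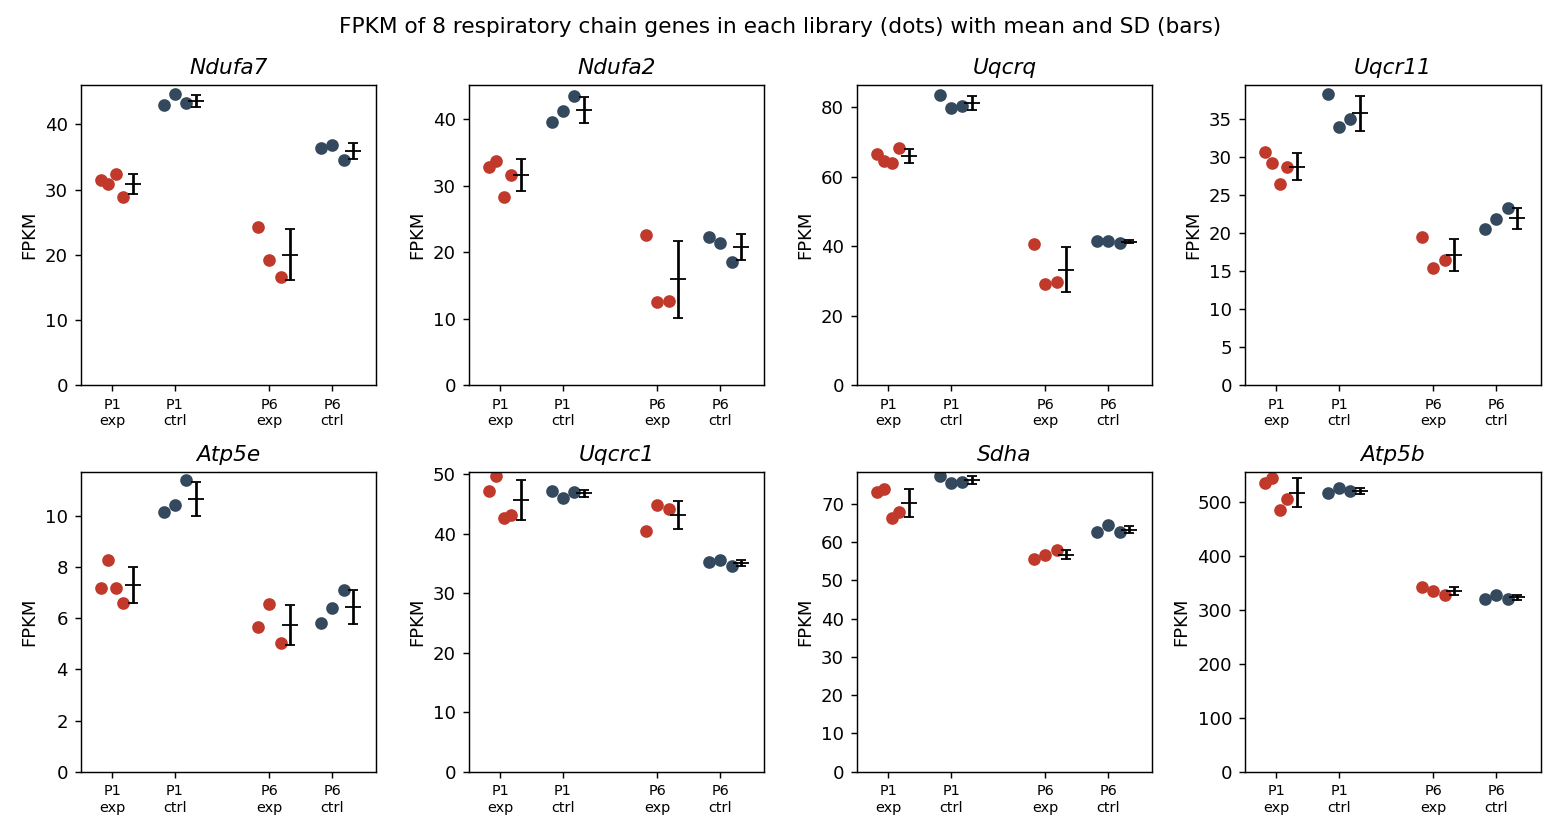
FPKM (y axis, from 0) of 8 genes in each library, with experimental (exp) left of control (ctrl) libraries at passage 1 (P1) and passage 6 (P6); bars give the mean and SD of each group. Ndufa7 and Uqcr11 lie below every control at both passages, Uqcrc1 lies above every control at passage 6, and Ndufa2 and Uqcrq at passage 6 have 1 experimental library at the control level and 2 below it.

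Assembly factors, which build the complexes without being part of them, had lower calls at passage 1 and none higher. A list of 46 further assembly factors, of which 42 were tested, had 23 (54.8%) called lower and 0 higher at passage 1, with a median log2 change of -0.21, where 18.9% of all genes were lower and 11.5% higher, with a median of -0.053. The list had all 3 tested complex II assembly factors lower, 6 of 8 for complex I, 2 of 5 for complex III, 10 of 22 for complex IV and 2 of 4 for complex V. The 8 Ndufaf genes, complex I assembly factors outside this list, had 1 lower (12.5%) and 0 higher. With them 24 of 50 tested assembly factors were lower (48%) and 0 higher. Taco1, a translational activator of the mitochondrial Cox1 mRNA, had 9.81, 8.81, 8.49 and 8.06 FPKM in experimental libraries, against 12.7, 12.7 and 14.3 FPKM in controls (log2 change -0.54, SE 0.073, limma adjusted p = 0.00173). Dmac1, which acts in assembly of the membrane arm of complex I, had 8.15, 9.98, 8.03 and 10.3 FPKM in experimental and 12.9, 13.3 and 12.3 FPKM in control libraries (log2 change -0.46, limma adjusted p = 0.00817), and Surf1, a complex IV factor whose loss causes Leigh syndrome in humans, changed by -0.34 (limma adjusted p = 0.0133). In each of the 4 experimental libraries the median of the list was below the controls, at -0.17, -0.22, -0.26 and -0.21, against 0.016, -0.015 and 0.00039. The count of lower factors on the list was 11 to 18 under the other scalings. The 11 (26.2%) came with median-of-ratios scaling, where 12.7% of all genes were lower. In the libraries with cartilage transcripts the count was 2 (4.76%), where 4.46% of all genes were lower. With 1 library left out it was 6 to 24. Without experimental library 3 it was 19 (45.2%), where 19.3% of all genes were lower. Shares of all genes without a control are not given here. The count was 6 without control 1 or control 2 and 10 without control 3.

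Of 8 listed genes of the same pathway that the name rule did not reach, 2 were higher and 2 lower at passage 1. That is 25% each, where 11.5% of all genes were higher and 18.9% lower. Cox4i1, the main form of the largest nuclear-encoded complex IV subunit, had 240 to 257 FPKM in experimental and 252 to 262 FPKM in control libraries (log2 change -0.052, limma adjusted p = 0.356), and neither Cyc1 nor Cycs, cytochromes c1 and c, was called. Cox4i2, the lung and hypoxia-associated form of that subunit, was higher. It had 17.7, 9.72, 22.2 and 20.5 FPKM in experimental libraries, against 4.36, 5.02 and 4.99 FPKM in controls. All 4 experimental libraries were above every control, by a log2 change of 1.62 (SE 0.24, limma adjusted p = 0.00245). Higd1a, a hypoxia-induced partner of the respiratory complexes, was also higher (10.8, 8.20, 12.6 and 11.1 FPKM in experimental and 6.61, 6.35 and 6.5 FPKM in control libraries, limma adjusted p = 0.0066). Ndufa4l2, the hypoxia-induced relative of Ndufa4, had 3.05, 1.51, 6.00 and 3.24 FPKM in experimental and 0.910, 1.44 and 1.40 FPKM in control libraries and missed the threshold (log2 change 0.90, limma adjusted p = 0.0521). The lower genes were Atpif1, the inhibitor of ATP synthase (log2 change -0.17, limma adjusted p = 0.0309), and Higd2a, a relative of Higd1a (log2 change -0.30, limma adjusted p = 0.0277). Leaving out any 1 of the 3 controls ended both of these calls.

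Of the 13 mitochondrially encoded subunits 2 were lower (15.4%) and 0 higher at passage 1, where 18.9% of all genes were lower and 11.5% higher. Both encode catalytic-core subunits of complex IV: mt-Co1 had 5025, 4772, 4175 and 4811 FPKM in experimental and 6644, 5835 and 5640 FPKM in control libraries (log2 change -0.36, limma adjusted p = 0.0119), and mt-Co3 changed by -0.30 (limma adjusted p = 0.0141). Of 12 tested regulators of respiratory genes 3 were lower and 1 higher (25% and 8.33%), beside those 18.9% and 11.5% of all genes. Ppargc1b, a coactivator of mitochondrial genes, had 2.35, 3.05, 2.60 and 2.59 FPKM in experimental and 3.99, 3.68 and 3.95 FPKM in control libraries (log2 change -0.42, limma adjusted p = 0.00519). Its partner receptor Esrra changed by -0.29, the mitochondrial rRNA methyltransferase Tfb1m by -0.34, and Gabpb1, a GABP subunit, by 0.28, all called. Ppargc1a stayed at or below 0.138 FPKM in every library of both passages, and Nrf1, Gabpa and Tfam were not called at either passage.

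At passage 6, when the cells looked normal, 3 genes of the set were lower and 1 higher in experimental libraries. That is 3.45% lower and 1.15% higher, where 10.8% of all 12458 tested genes were lower and 8.98% higher. Ndufa7 had 24.2, 19.2 and 16.6 FPKM in experimental libraries, against 36.3, 36.8 and 34.5 FPKM in controls. It was at 20 ± 3.87 FPKM in experimental and 35.9 ± 1.21 FPKM in control libraries (SD, n = 3 each), without overlap, and changed more than any other gene of the set (log2 change -0.83, SE 0.12, limma adjusted p = 0.00631). Its call held in all 19 alternatives run at passage 6.

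Uqcr11 had 19.4, 15.4 and 16.4 FPKM in experimental and 20.5, 21.9 and 23.3 FPKM in control libraries. The groups were separate by a narrow gap (log2 change -0.34, SE 0.090, limma adjusted p = 0.0375). Sdha had 55.5, 56.6 and 58.0 FPKM in experimental and 62.7, 64.4 and 62.6 FPKM in control libraries, a small but even change (log2 change -0.15, SE 0.043, limma adjusted p = 0.0433). Uqcrc1, a core subunit of complex III, was the gene that rose: it had 40.4, 44.8 and 44.2 FPKM in experimental libraries, against 35.2, 35.6 and 34.6 FPKM in controls, with all 3 experimental libraries above every control (log2 change 0.29, SE 0.053, limma adjusted p = 0.0128). Leaving out any 1 of the 3 controls ended the calls of Uqcrc1, Uqcr11 and Sdha (limma adjusted p between 0.00132 and 0.178 over all alternatives of the 3 genes).

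Ndufa7 and Uqcr11 were therefore called lower at both passages, 2 of the 16 lower genes of passage 1 and 2 of the 3 of passage 6. The passage 6 call of Uqcr11 was lost in 9 of 19 alternatives, also without experimental library 2 and without library 3. Uqcr11 had a log2 change of -0.44 without experimental library 1 and -0.16 with library 1 alone. Of the 16 genes lower at passage 1, 14 had a fitted change below 0 at passage 6, as did 66 of all 87.

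The small number of calls at passage 6 covered a large difference between libraries. Relative to the control mean, the median over the 87 genes was 0.063 in experimental library 1, -0.16 in library 2 and -0.23 in library 3, against -0.037, 0.024 and -0.00050 in the controls. Library 1 was above and libraries 2 and 3 below every control. For 51 of the 87 genes (58.6%) libraries 2 and 3 lay below every control while library 1 did not, a pattern shown by 11% of all tested genes. Library 1 lay above every control for 37 genes (42.5%), against 33.9% of all genes. All 3 experimental libraries lay below every control for 8 genes (9.2%), against 24.3% of all genes.

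The gap was widest in complex IV, with medians of 0.067, -0.37 and -0.33 in experimental libraries 1 to 3, against -0.042, 0.037 and -0.013 in controls. Complex III followed with 0.029, -0.21 and -0.31, complex I with 0.098, -0.16 and -0.20, complex V with 0.012, -0.11 and -0.25, and complex II was the least divided, with 0.059, -0.078 and -0.031. Cox7a2, a complex IV subunit, had 51.8, 32.1 and 33.1 FPKM in experimental and 47.8, 52.2 and 48.7 FPKM in control libraries. Ndufs4, a complex I subunit whose loss in mice causes a Leigh-like disease, had 28.5, 17.8 and 17.0 FPKM in experimental and 26.5, 29.0 and 26.4 FPKM in control libraries. In both genes library 1 was near the controls and libraries 2 and 3 were far below them, and neither passed the test (limma adjusted p = 0.162 and 0.161).

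**Figure D4:**
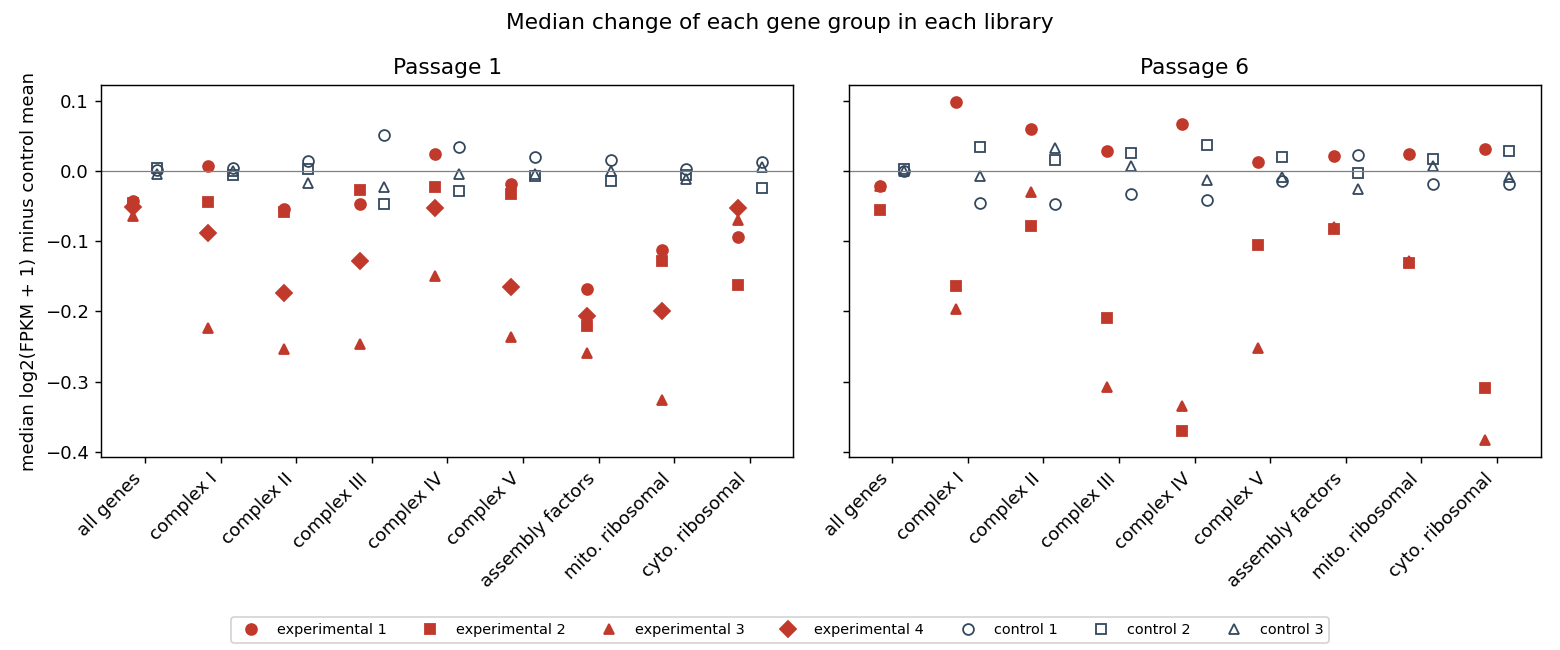
For each library, the median over the genes of a group of log2(FPKM + 1) minus the control mean of the passage (y axis), for 9 gene groups (x axis); filled red symbols are experimental and open symbols control libraries, and "assembly factors" are those outside the Ndufaf genes. At passage 6 experimental libraries 2 and 3 lie below library 1 in all 9 groups, most in complex IV and the cytosolic ribosomal proteins.

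Without library 1 the fit at passage 6 called 43 of the 87 genes lower and 1 higher, where 19.6% of all genes were lower and 15% higher. With library 1 alone, which is assumed to vary like the controls, it called 2 lower and 15 higher, where 10.8% and 9.43% of all genes were. Both fits share the 3 controls, so their values are given side by side and no overlap is counted. Ndufa7 had log2 changes of -0.97 without library 1 and -0.55 with library 1 alone, Sdha -0.14 and -0.19, and Uqcrc1 0.33 and 0.20, all called in both fits. Uqcrb, the ubiquinone-binding small subunit of complex III, had -0.20 and 0.32, Ndufa4 -0.43 and 0.18, Ndufa1 -0.15 and 0.23, and Ndufs5 -0.18 and 0.24, each called in both fits with opposite signs. Ndufb5 had 0.11 without library 1, which was not called, and 0.39 with it alone, which was.

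The libraries that were low for the respiratory chain were also those with liver markers (249 and 202 FPKM), with Alb, the albumin gene, at 67.4 and 56.8 FPKM and at 0 in library 1 and all controls of the passage. Myelin and brain markers summed to 76.7 and 63.5 FPKM in them, against 25.9 FPKM in library 1 and 29.1 to 31.3 FPKM in controls, and colon markers to 10.0 and 10.4 FPKM, against 117 FPKM in library 1 and 124 to 292 FPKM in controls. Their summed FPKM were 335920 and 334839, against 354288 in library 1 and 348286 to 349541 in controls. Cytosolic ribosomal protein genes, which code for no mitochondrial protein, moved in the same way, with medians of 0.031, -0.31 and -0.38 in experimental libraries 1 to 3, against -0.019, 0.029 and -0.0090 in controls. The part of these library differences in the result was not tested. The 43 genes lower without library 1 had a median exon length of 1569 bases and the other 44 of 1795 bases.

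Of 41 assembly factors outside the Ndufaf genes tested at passage 6, 0 were lower and 1 higher by limma, with a median of -0.043. Of all genes 10.8% were lower and 8.98% higher. Without experimental library 1, 5 factors were lower and 3 higher (12.2% and 7.32%), with a median of -0.082, where 19.6% and 15% of all genes were. The higher gene was Cox10, which makes heme for complex IV, with 9.52, 9.56 and 9.90 FPKM in experimental and 8.50, 8.20 and 8.09 FPKM in control libraries (log2 change 0.20, limma adjusted p = 0.0299). Cox4i2 was not called, at 4.32, 3.59 and 3.75 FPKM in experimental and 3.91, 5.14 and 4.18 FPKM in control libraries. Ndufa4l2 was lower, at 1.15, 1.80 and 1.60 FPKM in experimental and 2.85, 2.33 and 3.15 FPKM in control libraries (log2 change -0.59, limma adjusted p = 0.0203). Ppargc1b was lower again (log2 change -0.33, limma adjusted p = 0.0208), and of the mitochondrially encoded subunits mt-Nd3, a complex I subunit, was lower (log2 change -0.47, limma adjusted p = 0.0188). Leaving out any 1 of the 3 controls ended the calls of Cox10, Ppargc1b and mt-Nd3, and leaving out control 1 or 3 ended that of Ndufa4l2.

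The 2 passages were compared through the change within each, as passage 6 change minus passage 1 change over all 13 libraries. Of the 87 genes 3 had a higher change at passage 6 and 0 a lower one, where 8.46% of all 13019 tested genes had a higher and 6.27% a lower change. Ndufb5 had 12.8, 12.7, 10.3 and 12.1 FPKM in experimental and 14.6, 14.2 and 13.8 FPKM in control libraries at passage 1, and 10.6, 8.97 and 8.21 FPKM in experimental and 7.67, 7.88 and 8.01 FPKM in control libraries at passage 6. It was below every control at passage 1 and above every control at passage 6, a difference of 0.44 (SE 0.12, limma adjusted p = 0.028). The change of Ndufb5 at passage 6 alone was not called (limma adjusted p = 0.134). Its gene overlaps that of Mrpl47 on the other strand, and Mrpl47 reached at most 8.85 FPKM in any library. Uqcrc1 differed by 0.32 (SE 0.082, limma adjusted p = 0.0218) and Ndufaf7 by 0.28 (SE 0.086, limma adjusted p = 0.0475). The median difference over the 87 genes was -0.00021, against 0.016 over all genes. The further assembly factors had 8 of 42 with a higher change at passage 6 and 0 with a lower one, with a median difference of 0.19. With 1 library left out that count of 8 ranged from 1, without passage 6 control 3, to 9. It was 3 without passage 1 control 1 or 3, passage 6 control 2 or passage 6 experimental library 2, 4 without passage 1 control 2, and 5 without passage 1 experimental library 4 or passage 6 control 1. Cox4i2 differed by -1.76 (limma adjusted p = 0.00332).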

How the data were processed

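Poly(A) RNA was sequenced from 13 Neuro2a samples with an RNA integrity number above 7. The submitters' processing notes name mouse genome mm10 and, without versions, HISAT2, StringTie, cutadapt, edgeR and DESeq2, and the authors deposited FPKM in 1 table per passage. How FPKM were scaled between libraries, and whether counting used strand, is not given in the sources used here. Of 34857 genes 1 with an empty cell was left out, and GRCm38 symbols (GENCODE M21) matched 34730.

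On the log2(FPKM + 1) scale, genes at 1 FPKM or more in at least 3 libraries of a passage were tested by limma 3.58.1 under R 4.3.3 (intensity trend, equal weights, two-sided, Benjamini-Hochberg over all tested genes, threshold 0.05), for each passage alone and, for the difference, as a contrast over 13 libraries. The fit was also run on simulated data, with noise drawn independently for each gene and library, and its outcome is not given here. Such data hold no shift shared by many genes of a library, so they cannot show how the fit handles one. The genes and lists were chosen with earlier results of these data known, so their counts are descriptions. Named were, for each complex, up to 4 called genes in each direction with a mean of at least 5 FPKM, or else the 2 with the highest FPKM, with a fixed set of catalytic, isoform and regulator genes. For other lists the rule took up to 2 called genes in each direction, but not all of these are named in the text. Genes named beyond these rules were chosen after their values were seen. They include Ndufaf7, Atp5s, Ndufs3, Ndufs4, Surf1, Esrra and the further lower complex I genes. Alternatives were pseudocounts of 0.1 and 5, no filter or 5 FPKM, 4 other scalings, no trend, array weights, a replicate block, 1 fit over both passages, each library left out, and passage 6 with experimental library 1 alone. Promoters came from RefSeq on GRCm38.p6, and the motifs searched in them were chosen after the data were seen. The values of 1 tested gene are not reported here on their own. Tables were made with Python 3.11.15 and pandas 2.3.3.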

Additional observations from a re-analysis of the deposited data

Results flagged for a closer look

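For 3 respiratory chain genes the change in experimental against control libraries differed between the passages by limma's test of the difference itself, passage 6 change minus passage 1 change over 13 libraries. The change of Ndufb5 at passage 6 alone was not called. Of its experimental libraries 4 of 4 lay below every control at passage 1 and 3 of 3 above every control at passage 6. For Ndufb5 the difference between passages was 0.44 on the log2 scale (adjusted p = 0.028). For Uqcrc1 it was 0.32 (adjusted p = 0.0218), with 3 of 3 experimental libraries above every control at passage 6 and overlapping groups at passage 1. For Ndufaf7 it was 0.28 (adjusted p = 0.0475), with 4 of 4 experimental libraries below every control at passage 1 and overlapping groups at passage 6. Over the alternatives the adjusted p ranged from 0.0109 to 0.0753 for Ndufb5, from 0.00176 to 0.0959 for Uqcrc1 and from 0.0303 to 0.13 for Ndufaf7. Leaving out passage 1 control 1 or 3, or passage 6 control 1 or 3, ended the calls of all 3 genes. None of the 42 named genes checked in the group of 4 had a library far from the other 3, by a rule that flags about 1 in 20 groups by chance.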

How the results depend on the processing

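At passage 1 the counts of 0 higher and 16 lower genes became 4 and 8 with median-of-ratios scaling, 2 and 10 with equal FPKM totals, 4 higher with array weights, 9 lower with no filter, 4 lower in the libraries with cartilage transcripts, and 8 lower with the replicate block. At passage 6 the counts of 1 higher and 3 lower became 2 higher with median-of-ratios scaling and with equal FPKM totals. Among all genes 1411 of 12454 and 1144 of 12452 were higher under these 2 scalings. The lower count at passage 6 was 9 with 1 fit over both passages, 26 with array weights and 5 with quantile normalization. It was 1 each with median-of-ratios scaling, no filter and the replicate block. Among all genes 1146 of 12468 were lower with quantile normalization and 1039 of 12454 with median-of-ratios scaling. With passage 6 experimental library 1 alone 15 were higher and the median was 0.063, and Ndufa4 and Cox4i1 turned to 0.18 and 0.15. For the difference between passages, 3 higher and 0 lower became 5 and 12 with array weights, 1 higher with no filter and 0 higher with the replicate block. Calls over all genes with array weights, no filter, the replicate block and 1 fit are not given here. The counts under these settings therefore describe the set alone.

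With 1 library left out, passage 1 gave 0 to 3 higher and 7 to 19 lower, passage 6 gave 0 to 1 higher and 1 to 43 lower, and the difference gave 0 to 5 higher and 0 to 16 lower. Lower counts at passage 1 were 7 without control 1 or control 3, 9 without control 2 and 10 without experimental library 4. Higher counts there were 2 and 3 without experimental library 2 and 3. The 43 and the 16 came from leaving out passage 6 experimental library 1. Without it 19.6% of all genes were lower at passage 6, and 1145 of 12962 genes were lower for the difference. At passage 6, 1 gene of the set was lower without any 1 of the other 5 libraries, and 0 were higher without any 1 control. Calls over all genes are not given here for most of the other fits with 1 library left out. For the difference, 0 were higher without control 1 or 3 of either passage, 1 without passage 6 control 2 or experimental library 2, and 5 without passage 6 experimental library 3, and 2 were lower without passage 1 experimental library 2. The cause of these shifts was not tested. The median change over the 87 genes at passage 1 was -0.10, and it lay between -0.12 and -0.033 over the 20 alternatives run. The -0.033 came with median-of-ratios scaling. Medians of single libraries ran from -0.23 to 0.0032 in experimental and from -0.016 to 0.021 in control libraries. Replicate numbers are shared between groups, but same-numbered samples correlated at only 0.17, -0.19 and 0.24 at passage 1 and -0.066, -0.060 and 0.033 at passage 6. These values show no clear pairing, but they cannot tell whether same-numbered samples were handled together. Depth is unknown, which leaves genes near 1 FPKM without an estimate of counting error.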

Other observations

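Other mitochondrial and translation genes are given here as values, beside the respiratory chain. Of 78 mitochondrial ribosomal protein genes, whose products make the mitochondrially encoded subunits, 30 were lower and 0 higher at passage 1 (median log2 change -0.20), and 3 lower and 0 higher at passage 6 (median -0.075). Of all tested genes 18.9% were lower and 11.5% higher at passage 1 and 10.8% lower and 8.98% higher at passage 6. Without passage 6 experimental library 1, 24 of the mitochondrial ribosomal genes were lower and 3 higher (median -0.12), and the 30 of passage 1 became 15, 13 and 16 without control 1, 2 and 3. Medians of the mitochondrial ribosomal genes in the 4 passage 1 experimental libraries were -0.11, -0.13, -0.33 and -0.20, all below the controls. Of 77 cytosolic ribosomal protein genes 22 were lower and 2 higher at passage 1, and 9 lower and 0 higher at passage 6. The 9 became 61 (79.2%) without passage 6 experimental library 1, where 19.6% of all genes were lower, and 2 to 5 without any 1 of the other libraries, and the 22 became 8, 7 and 6 without passage 1 control 1, 2 and 3. Of 16 pyruvate dehydrogenase and citrate cycle enzymes, which supply the chain with electrons, 2 were lower and 0 higher at passage 1: Ogdh had 46.3, 49.3, 43.2 and 41.9 FPKM in experimental and 57.0, 56.3 and 54.9 FPKM in control libraries (limma adjusted p = 0.00736), and Idh3b changed by -0.31 on the log2 scale (limma adjusted p = 0.00942). None of the 16 passed the test at passage 6, where Ogdh had 43.2, 46.6 and 53.5 FPKM in experimental and 55.7, 55.5 and 54.8 FPKM in control libraries (limma adjusted p = 0.0921).

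Among the genes with respiratory chain names that are not protein-coding, Ndufb4c, a processed pseudogene, was listed with 6.65 to 13.4 FPKM over the 13 libraries, and Ndufb4 with 6.98 to 17.4 FPKM. The processed pseudogene Ndufab1-ps had 2.88 to 9.06 FPKM, and Ndufab1 had 4.18 to 9.2 FPKM. How reads shared with such copies were counted is not given in the sources used here, so the values of Ndufb4 and Ndufab1 are uncertain.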
